A study of Mus musculus with 44 samples.

Results

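Mouse macrophages kept in interleukin-4 (IL-4) for 24 h were compared with macrophages kept in it for 8 h. The comparison used the 4 libraries of the IL-4 cultures at 24 h and the 4 at 8 h, chosen by treatment and time from the sample labels, which is 8 of the 44 libraries of the series. The cells were thioglycolate-elicited peritoneal macrophages of C57BL/6 mice, pooled from several animals and enriched by adherence, and cultured in DMEM with 10% serum and antibiotics. IL-4 was given at 10 ng/mL. Unstimulated cultures of the same pool, sampled at the same times with 4 libraries each, served as the background of time in culture and are called controls. Sex and age of the mice are not given in the labels. Because all cultures came from 1 pool of cells, p-values measure the spread between cultures and not between mice. The RNA was polyadenylated RNA read as single-end 50-base reads.

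IL-4 is a type 2 cytokine that binds the receptor chain IL-4Rα, paired with the common γ chain or with IL-13Rα1, and activates the transcription factor STAT6. In macrophages this turns on a programme often called alternative activation, with arginase, chitinase-like and resistin-like proteins, lectin receptors and type 2 chemokines, and it raises its own inhibitors of the SOCS family. Secreted proteins of such cells are folded in the endoplasmic reticulum by chaperones, whose genes carry the endoplasmic reticulum stress element (ERSE), a bipartite promoter motif read by ATF6 with NF-Y.

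The promoter windows below belong to genes whose transcripts the comparison turns on: 4 chaperone genes with an ERSE match, and Retnla, Chil3 and Chil4, secreted IL-4 markers with a STAT-type match. Each is the 250 bases before the RefSeq transcription start in GRCm38.p6, written 5′ to 3′ on the strand of the gene, with capitals marking the match. The ERSE was searched as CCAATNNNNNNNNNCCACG on both strands and occurs in 37 of 32851 mouse promoter windows of this length, or 0.113%. The STAT6-type site was searched as TTCNNNNGAA, present in 1923 windows or 5.85%, and the STAT-type site with 3 bases between its arms as TTCNNNGAA, present in 2306 windows or 7.02%. The windows lie at chr2:34771840-34772089 (plus strand, match starting 65 bases before the start), chr12:17266339-17266588 (plus, 98), chr8:84846932-84847181 (minus, 162), chr10:86705445-86705694 (minus, 212 and 107), chr16:48842359-48842608 (plus, 145), chr3:106167565-106167814 (minus, 172) and chr3:106219480-106219729 (minus, 200). The ERSE of Calr and the nearer one of Hsp90b1 read on the strand opposite to the gene.
Hspa5: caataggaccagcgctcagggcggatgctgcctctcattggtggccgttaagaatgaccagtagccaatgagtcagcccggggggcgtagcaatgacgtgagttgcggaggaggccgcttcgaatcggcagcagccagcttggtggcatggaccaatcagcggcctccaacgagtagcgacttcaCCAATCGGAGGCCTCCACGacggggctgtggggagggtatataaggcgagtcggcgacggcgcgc
Pdia6: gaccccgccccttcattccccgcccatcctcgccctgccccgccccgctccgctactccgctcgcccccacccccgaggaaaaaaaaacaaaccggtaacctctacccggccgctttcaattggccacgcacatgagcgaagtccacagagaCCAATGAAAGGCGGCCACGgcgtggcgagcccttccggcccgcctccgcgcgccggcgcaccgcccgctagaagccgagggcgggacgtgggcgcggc
Calr: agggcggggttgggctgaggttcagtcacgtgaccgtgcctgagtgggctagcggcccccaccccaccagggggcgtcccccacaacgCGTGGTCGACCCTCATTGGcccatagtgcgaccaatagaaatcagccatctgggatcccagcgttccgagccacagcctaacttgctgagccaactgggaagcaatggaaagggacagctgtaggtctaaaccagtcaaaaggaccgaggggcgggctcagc
Hsp90b1: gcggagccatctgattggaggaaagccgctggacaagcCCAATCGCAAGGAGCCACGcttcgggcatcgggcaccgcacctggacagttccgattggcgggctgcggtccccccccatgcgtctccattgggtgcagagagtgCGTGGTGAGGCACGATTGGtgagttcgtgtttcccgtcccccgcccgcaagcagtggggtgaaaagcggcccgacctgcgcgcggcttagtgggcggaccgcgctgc
Retnla: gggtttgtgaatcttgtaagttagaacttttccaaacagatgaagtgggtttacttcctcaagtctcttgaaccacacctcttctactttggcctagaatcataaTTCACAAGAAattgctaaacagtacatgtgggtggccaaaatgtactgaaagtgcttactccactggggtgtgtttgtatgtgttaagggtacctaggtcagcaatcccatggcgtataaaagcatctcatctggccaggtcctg
Chil3: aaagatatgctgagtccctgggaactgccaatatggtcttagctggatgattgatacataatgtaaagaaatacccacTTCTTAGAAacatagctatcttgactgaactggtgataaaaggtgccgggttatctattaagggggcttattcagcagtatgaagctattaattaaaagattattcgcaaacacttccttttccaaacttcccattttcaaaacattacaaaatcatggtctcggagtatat
Chil4: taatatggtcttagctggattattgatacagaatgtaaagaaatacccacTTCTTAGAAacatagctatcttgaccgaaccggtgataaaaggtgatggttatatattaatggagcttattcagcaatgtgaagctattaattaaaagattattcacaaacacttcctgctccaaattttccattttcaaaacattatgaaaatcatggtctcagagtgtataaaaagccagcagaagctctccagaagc

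A match describes letters in a window and not a site in use. The windows of Chil3 and Chil4, a neighbouring pair of paralogous genes, both hold the STAT-type match. No ERSE lies in these windows of the chaperone genes Pdia3, P4hb and Sdf2l1, and neither STAT-type motif lies in those of Ear2, Rnase2a, Ccl22, Ccl6, Ccl9, Mgl2, Socs1 or Cish. Of the chaperone genes, only those called in the comparison were examined one by one. The window of Ccl17 holds both STAT-type motifs, starting 154 and 99 bases before its start, and that of Clec4a2 the motif with 3 bases between its arms, starting at 42.

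Gene totals were 6.46, 1.71, 1.50 and 3.14 M counts at 8 h and 0.908, 25.1, 9.74 and 7.67 M at 24 h, against 3.54 to 26.6 M in the controls. Replicate 1 at 24 h was the shallowest and stood apart. Its log expression correlated at 0.930 with the rest of its group, against 0.967 to 0.989 for the other 7 libraries. It held 38559 counts per M counts of the tested genes (CPM) of ribosomal protein transcripts over the 36 genes listed, against 14453 to 15692 CPM in the other 24 h libraries and 14362 to 30582 CPM at 8 h. Its share of reads without a unique place was also the highest, 83.2 per 100 counts assigned to genes. The first principal component of log expression in the IL-4 libraries (47.9% of the variance) did not separate the times. On it 24 h replicate 1 lay at 86.7 and 8 h replicates 3 and 4 at 23.5 and 23.9. The 8 h replicates 1 and 2 (-21.1 and -36.3) lay with 24 h replicates 2, 3 and 4 (-22.1, -26.6 and -28.0). List counts are also given without 24 h replicate 1 and, for many lists, without it and the 8 h replicates 2 and 3, the 3 libraries called shallow below. Macrophage markers were present at both times, with Csf1r at 450.2 ± 155 CPM at 8 h and 363 ± 59.1 CPM at 24 h and Cd68 at 1526 ± 180.0 CPM at 8 h and 1273 ± 119 CPM at 24 h (mean ± SD, n = 4). Itgam stood at 321 ± 47.4 CPM at 8 h and 303 ± 87.0 CPM at 24 h and Adgre1, which encodes F4/80, at 209 ± 48.2 CPM at 8 h and 176 ± 32.6 CPM at 24 h. Timd4, a marker of resident peritoneal macrophages, was near 0 (0.899 ± 0.668 CPM at 8 h and 0.793 ± 0.538 CPM at 24 h).

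Of 14537 genes tested with edgeR, 226 were higher and 221 lower at 24 h than at 8 h in IL-4 (Benjamini-Hochberg adjusted p under 0.05), which is 1.55% and 1.52% of the genes and 3.07% together. Changes of at least 2-fold made up 94 of the higher and 72 of the lower genes. Every 24 h library lay above every 8 h library in 134 of the higher genes and below in 149 of the lower ones, while over all genes tested, called or not, such separation occurred in 2.88% upward and 4.60% downward. Without 24 h replicate 1 the counts rose to 859 higher and 486 lower, which held 426 of the 447 genes in the same direction and none in the opposite one. Leaving out another single library gave 118 to 331 higher and 90 to 283 lower genes, the fewest without 8 h replicate 4. The higher count also dropped more than 1.5-fold without 24 h replicate 2, 3 or 4 (125, 134 and 143 genes), and the lower count without 8 h replicate 3 or those same 24 h libraries (107, 112, 97 and 105 genes). Without the 3 libraries under 2 M counts there were 410 higher and 442 lower genes. List counts below that leave out libraries are to be read beside these totals of the same fits. All groups of the series shared 1 estimate of the spread in this test, and with the 8 IL-4 libraries fitted alone only 27 higher and 15 lower genes passed, all among the 447.

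In the controls, 47 genes were higher and 31 lower at 24 h than at 8 h, 0.323% and 0.213% of the genes tested and 0.537% together. With the replicate number as a block, which treats same-numbered control cultures as pairs, the control counts were 421 higher and 486 lower. The labels do not say whether the same number marks a shared batch. Without one control library at a time they ranged from 19 to 47 higher and 8 to 37 lower, the fewest without control 24 h replicate 2. Higher in both IL-4 and control cultures were 20 genes, which is 8.85% of the IL-4 set and 42.6% of the control set. Lower in both were 4 genes, 1.81% and 12.9% of the sets, and no gene moved in opposite directions. These shares, like the control counts below, come from the fit without the block. Against the control genes called with the block, 54 genes were higher in both (23.9% of the IL-4 set and 12.8% of the control set), 30 were lower in both (13.6% and 6.17%), and 2 that fell in IL-4 rose in the controls. The block fit used the control libraries alone and held 12101 of the 14537 genes, so the other genes could not overlap. Its calls were set against IL-4 calls made without the block. With the block, IL-4 gave 6 higher and 0 lower genes. The change over time in IL-4 differed from that in the controls for 9 genes, 6 upward and 3 downward (0.0413% and 0.0206% of the genes tested, 0.0619% together, tested as the difference of the log2 changes), and 1087 genes had an unadjusted p under 0.05 for this difference. So for most of the 447 genes a larger change in IL-4 than in culture alone was not shown.

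Slc36a2, a proton-coupled amino acid transporter, led these 9 genes. It gave 3.14, 5.05, 5.59 and 4.75 CPM at 8 h and 40.3, 35.5, 34.4 and 38.7 CPM at 24 h in IL-4, and 0.871 ± 0.310 CPM at 8 h and 0.519 ± 0.415 CPM at 24 h in the controls. All 24 h libraries lay far above all 8 h libraries (8.45-fold, log2 change 3.08 ± 0.40 SE, adjusted p = 9.3e-06), and the difference from the control change was 4.08 ± 0.73 SE (adjusted p = 0.0069). The gene lies at chr11:55158470-55185077, minus strand in GRCm38. Snx7, a sorting nexin of endosomes, measured 35.1, 28.3, 31.1 and 40.5 CPM at 8 h and 35.9, 50.4, 52.3 and 43.3 CPM at 24 h. Its IL-4 change alone missed the threshold (log2 change 0.45 ± 0.14 SE, adjusted p = 0.059) with overlapping libraries, while the controls went from 59.8 to 44.2 CPM, a fall called with the block (adjusted p = 0.012). The difference of the changes for Snx7 was 0.89 ± 0.19 SE (adjusted p = 0.043).

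Csf3r, the receptor for granulocyte colony-stimulating factor, fell from 73.2, 80.2, 47.8 and 46.2 CPM at 8 h to 14.2, 23.0, 27.1 and 26.8 CPM at 24 h (log2 change -1.37 ± 0.21 SE, adjusted p = 0.00012), with no overlap. Its control change was 0.07 (adjusted p = 0.96), and the difference was -1.43 ± 0.29 SE (adjusted p = 0.033). Ms4a6b, a member of the membrane-spanning 4A family, fell from 6.14, 5.55, 6.21 and 7.28 CPM to 1.09, 2.13, 2.45 and 2.37 CPM (log2 change -1.50 ± 0.24 SE, adjusted p = 0.00021), again without overlap. It differed from its control change of 0.06 (adjusted p = 0.97) by -1.55 ± 0.31 SE (adjusted p = 0.033). Dab2, an adaptor of clathrin-coated endocytosis, measured 153, 147, 127 and 122 CPM at 8 h and 49.0, 99.2, 93.4 and 95.5 CPM at 24 h and fell (log2 change -0.66 ± 0.17 SE, adjusted p = 0.021), with replicate 1 the lowest at 24 h. The control means were 20.1 and 29.6 CPM without a call (a rise with the block, adjusted p = 0.018), and the difference for Dab2 was -1.21 ± 0.24 SE (adjusted p = 0.033). The call on Dab2 was lost without 8 h replicates 1 or 3 or 24 h replicate 1 (adjusted p 0.051 to 0.054).

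Of the 9 differences, those of Slc36a2 and Pdia6 passed whichever of the 16 libraries was left out, but neither passed with the replicate block, with thinned libraries or without the 3 shallow libraries (adjusted p = 0.063 and 0.064 there). With the compared groups alone the difference of Slc36a2 passed (adjusted p = 0.022) and that of Pdia6 did not (adjusted p = 0.087), nor did Pdia6 pass without the filter on low counts. The difference of Ccl22 was lost without 8 h replicate 2 or control 8 h replicate 1 or control 24 h replicate 2 (adjusted p 0.0503 to 0.07). The difference of Ccl9 was lost without 8 h replicates 2, 3 or 4 or 24 h replicates 2 or 3 or control 8 h replicates 1 or 4 or control 24 h replicates 1 or 2 (adjusted p 0.056 to 0.1). The difference of Hspa5 was lost without 8 h replicates 2 or 3 or 24 h replicate 2 or control 8 h replicates 3 or 4 or control 24 h replicates 1 or 2 (adjusted p 0.056 to 0.091). The difference of Snx7 was lost without 8 h replicates 1, 2 or 3 or 24 h replicates 2 or 3 or control 8 h replicates 2, 3 or 4 or control 24 h replicates 1, 2 or 3 (adjusted p 0.052 to 0.11). The difference of Ms4a6b was lost without 8 h replicates 1, 2, 3 or 4 or 24 h replicate 2 or control 8 h replicate 4 or control 24 h replicates 2 or 3 (adjusted p 0.0503 to 0.103). The difference of Csf3r was lost without 8 h replicates 1 or 2 or 24 h replicate 2 or control 8 h replicates 3 or 4 or control 24 h replicates 1 or 2 (adjusted p 0.061 to 0.096). The difference of Dab2 was lost without 8 h replicates 1, 2 or 3 or control 8 h replicates 1, 3 or 4 or control 24 h replicates 1 or 2 (adjusted p 0.052 to 0.095). Without the 3 IL-4 libraries under 2 M counts edgeR gave no gene with a different change, with 694 higher and 639 lower at an unadjusted p under 0.05. DESeq2 gave 42 higher and 63 lower over all libraries, with no adjusted p for Slc36a2 and Ccl22. None of the 9 differences passed in edgeR with the replicate block or with thinned libraries. With the compared groups alone only that of Slc36a2 passed. Like Pdia6, Hspa5 did not pass without the filter on low counts.

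**Figure D1:**
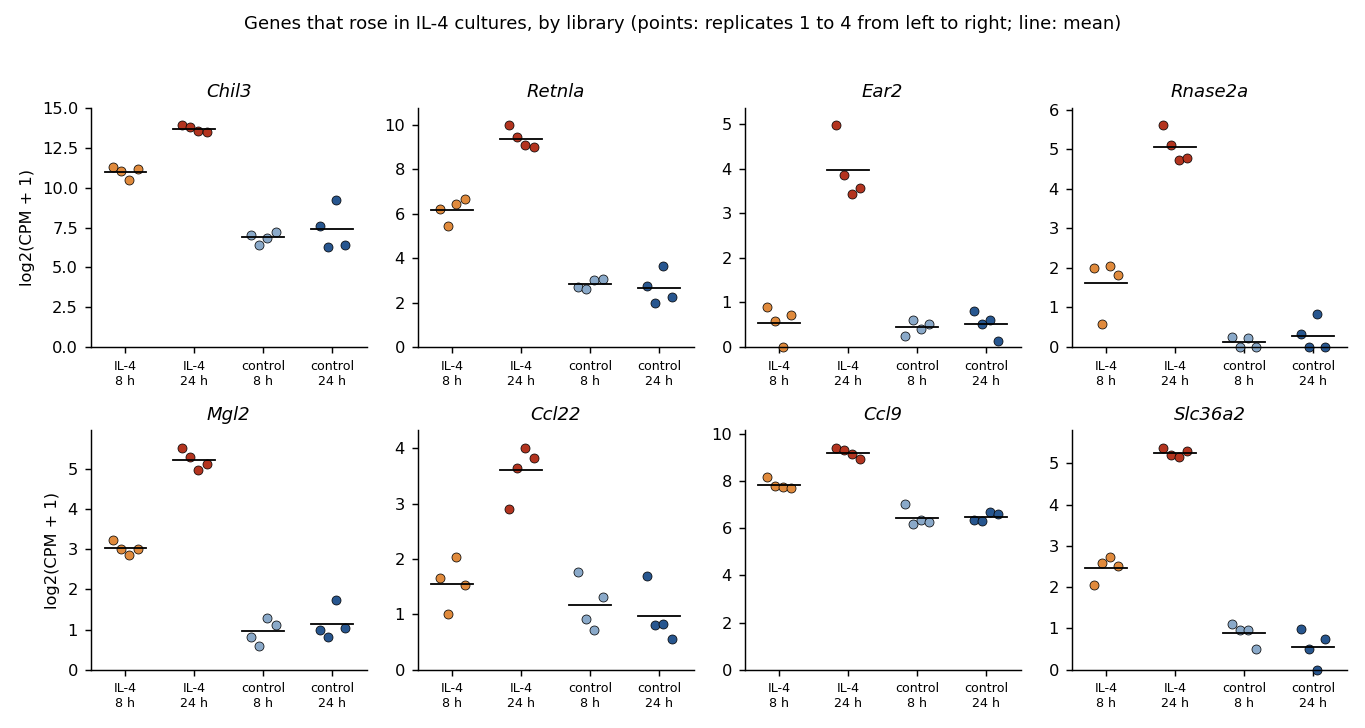
Points are log2(CPM + 1) of replicates 1 to 4 from left to right in IL-4 and control cultures at 8 h and 24 h, and lines are means, for 8 genes that rose in IL-4. In each panel all 4 IL-4 libraries at 24 h lie above all 4 at 8 h, as for Chil3 with 15707, 14422, 12448 and 11794 against 2547, 2173, 1446 and 2387 CPM.

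**Figure D2:**
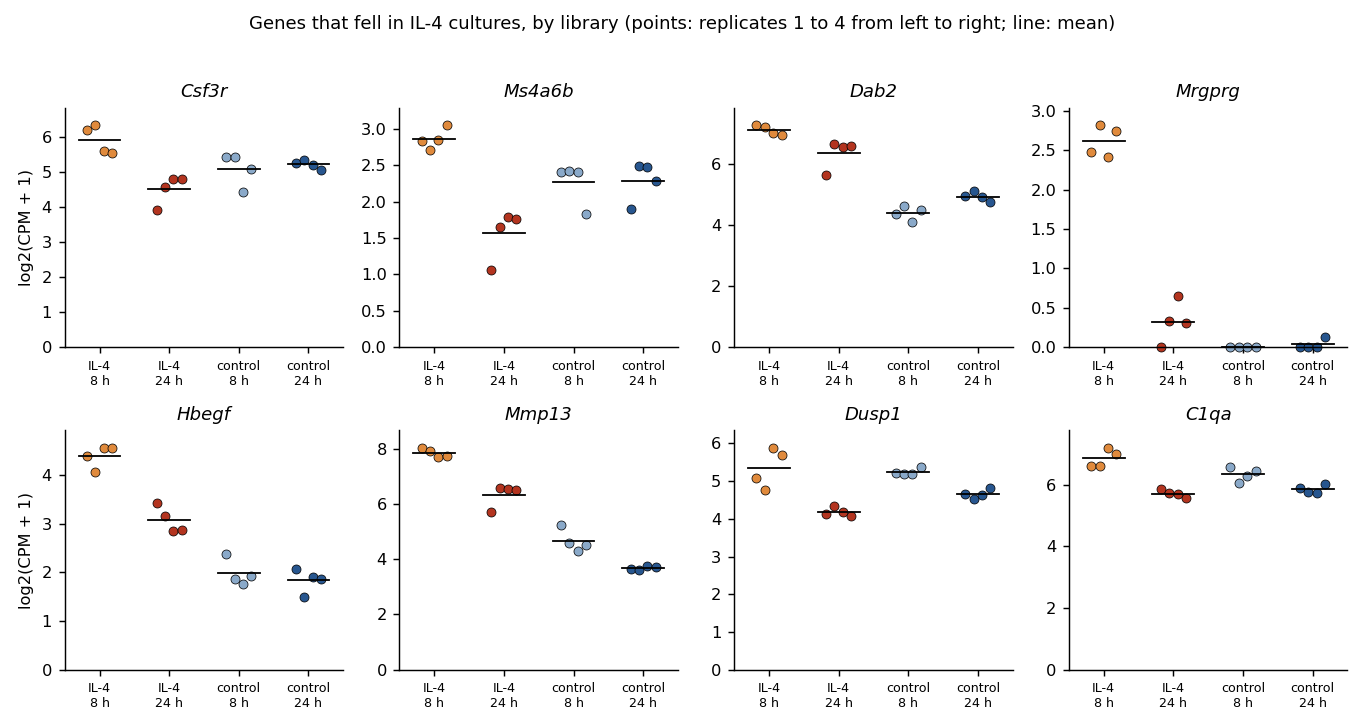
The same plot for 8 genes that fell in IL-4 between 8 h and 24 h. All 24 h libraries lie below all 8 h libraries in each panel, and replicate 1 is the lowest 24 h library for Csf3r, Ms4a6b, Dab2, Mrgprg and Mmp13.

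The receptor and the signalling chain showed no called change. In the list of the IL-4 receptor and STAT6 pathway 0 rose and 0 fell among the 13 members tested, with a median log2 change of 0.05, and 1 rose and 0 fell without 24 h replicate 1. Il4ra, the ligand-binding chain, measured 42.0, 48.9, 29.2 and 32.0 CPM at 8 h and 55.6, 31.5, 35.6 and 42.6 CPM at 24 h (log2 change 0.05 ± 0.16 SE, adjusted p = 0.93), and Stat6 measured 121, 124, 57.8 and 69.3 CPM at 8 h and 82.8, 100.4, 123 and 121 CPM at 24 h (log2 change 0.21 ± 0.18 SE, adjusted p = 0.57). Both ranges overlapped between the times. The smallest p in the list belonged to Il13ra1, which forms the type II receptor, at 0.51 (adjusted p = 0.065), and the next 3 were Il2rg, the common γ chain, at -0.43 (adjusted p = 0.18), the adaptor Irs2 at -0.55 (adjusted p = 0.44) and the phosphatase Ptpn2 at 0.19 (adjusted p = 0.48).

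The SOCS inhibitors, which STAT6 and STAT5 induce, were not called either, and 0 rose and 0 fell among the 8 members tested, with a median log2 change of 0.00025, and 1 rose and 1 fell without 24 h replicate 1 (0 and 1 without the 3 shallow libraries). Socs1, which blocks JAK kinases, measured 24.3, 15.1, 50.9 and 58.8 CPM at 8 h and 27.2, 20.5, 17.5 and 13.9 CPM at 24 h. It was high in 8 h replicates 3 and 4 and the groups overlapped (log2 change -0.99 ± 0.32 SE, adjusted p = 0.08). Cish measured 34.0, 34.3, 57.8 and 54.7 CPM at 8 h and 31.6, 32.9, 32.5 and 30.0 CPM at 24 h, so that every 24 h library lay below every 8 h library, without a call (log2 change -0.49 ± 0.29 SE, adjusted p = 0.38). Control cultures held Cish at 0.763 ± 0.652 CPM at 8 h and 0.548 ± 0.385 CPM at 24 h. The log2 change was 0.44 (adjusted p = 0.12) for Socs6 and 0.24 (adjusted p = 0.44) for Socs4.

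Several secreted markers of IL-4 macrophages rose between 8 h and 24 h. In this list 7 rose and 1 fell among the 16 members tested (1.55% and 1.52% over all genes tested). The median log2 change was 0.70, beside -0.01 over all genes tested, and 8 rose and 1 fell without 24 h replicate 1. Among the same genes in the controls there was 1 rise and no fall. With the replicate block 3 and 0 rose and fell in the controls among the 12 members in that fit. No member passed the test of the difference from the control change (smallest adjusted p = 0.16). Chil3 encodes Ym1, a chitinase-like lectin. It went from 2547, 2173, 1446 and 2387 CPM at 8 h to 15707, 14422, 12448 and 11794 CPM at 24 h (6.35-fold, log2 change 2.67 ± 0.51 SE, adjusted p = 0.0032). Retnla, which encodes the resistin-like protein RELMα or FIZZ1, went from 72.7, 41.9, 85.7 and 98.7 CPM to 1008, 690.3, 550.4 and 506 CPM (9.14-fold, log2 change 3.19 ± 0.57 SE, adjusted p = 0.0018). In both genes all 24 h libraries lay above all 8 h libraries, and replicate 1 was the highest at 24 h. The difference from the control change had adjusted p = 0.58 for Chil3 and 0.18 for Retnla. The controls stayed lower, with Chil3 at 120.1 ± 28.2 CPM at 8 h and 241 ± 249.7 CPM at 24 h and Retnla at 6.28 ± 1.15 CPM at 8 h and 5.92 ± 3.85 CPM at 24 h. Chil3 lies at chr3:106147554-106167564, minus strand and Retnla at chr16:48842551-48844461, plus strand (GRCm38, GENCODE M21, both protein-coding).

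Ear2 and Rnase2a, ribonucleases of the eosinophil-associated family, were nearly absent at 8 h. Ear2 measured 0.857, 0.505, 0 and 0.633 CPM at 8 h and 30.5, 13.6, 9.89 and 10.9 CPM at 24 h, and Rnase2a 3.00, 0.505, 3.11 and 2.53 CPM at 8 h and 47.9, 33.4, 25.8 and 26.3 CPM at 24 h. No library overlapped, and the fitted changes were 23.1-fold (log2 change 4.53 ± 0.89 SE, adjusted p = 0.00039) and 13.2-fold (log2 change 3.72 ± 0.71 SE, adjusted p = 0.0012). The difference from the control change had adjusted p = 0.16 for Ear2 and 0.98 for Rnase2a, whose control change was 2.05. Replicate 1 was again the highest 24 h library in both. Ear2 lies at chr14:44102654-44103534, plus strand and Rnase2a at chr14:51255262-51256112, minus strand. Chil4, which encodes the Ym1 paralogue Ym2, rose from 3.57, 2.52, 1.86 and 4.43 CPM to 8.71, 13.7, 14.0 and 14.2 CPM (log2 change 2.00 ± 0.48 SE, adjusted p = 0.012), with replicate 1 the lowest at 24 h. How the counting treated reads that fit more than 1 of these close paralogues is not given in the sources used here, so the split between Chil3 and Chil4 and between Ear2 and Rnase2a is uncertain.

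Igf1, a growth factor of repair macrophages, rose from 462, 357, 510.1 and 467 CPM to 914, 829, 698 and 648 CPM (log2 change 0.78 ± 0.19 SE, adjusted p = 0.014), with no overlap. Vegfa, an angiogenic factor, rose by 0.63 (adjusted p = 0.038). Il1rn, the interleukin-1 receptor antagonist, was the member that fell, from 77.3 ± 4.77 CPM to 46.2 ± 6.28 CPM (log2 change -0.77 ± 0.16 SE, adjusted p = 0.0054). Arginase 1 (Arg1), the classic enzyme marker, measured 1811, 1521, 1106 and 1426 CPM at 8 h and 1626, 1475, 1503 and 1398 CPM at 24 h and was not called (log2 change 0.03 ± 0.30 SE, adjusted p = 0.98), with overlapping libraries at both times. Tgm2, a transglutaminase, measured 142 ± 18.8 CPM at 8 h and 149.6 ± 30.6 CPM at 24 h and was not called (adjusted p = 0.91). The call on Igf1 was lost without 8 h replicate 2 (adjusted p = 0.0502). The call on Vegfa was lost without 8 h replicates 3 or 4 or 24 h replicates 2, 3 or 4 (adjusted p 0.084 to 0.15). Chil3, Chil4, Retnla, Ear2 and Rnase2a still passed with the 8 IL-4 libraries fitted alone (adjusted p 0.0023 to 0.011), and Igf1, Vegfa and Il1rn did not pass there (adjusted p 0.15 to 0.22).

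Among the type 2 chemokines, which recruit T helper 2 cells and eosinophils, 1 rose and 0 fell among the 5 members tested. Over all genes tested the shares were 1.55% and 1.52%. The list had a median log2 change of 1.03, and 1 rose and 1 fell without 24 h replicate 1 (1 and 1 without the 3 shallow libraries). Ccl22, a ligand of CCR4, measured 2.14, 1.01, 3.11 and 1.90 CPM at 8 h and 6.54, 11.6, 15.1 and 13.3 CPM at 24 h. All 24 h libraries lay above all 8 h libraries (6.10-fold, log2 change 2.61 ± 0.42 SE, adjusted p = 7e-05), and its rise differed from the control change of -0.58 (adjusted p = 0.65) by 3.19 ± 0.60 SE (adjusted p = 0.016). Ccl17, the other CCR4 ligand, measured 1.00, 0.505, 0.621 and 0.633 CPM at 8 h and 6.54, 2.35, 1.70 and 3.44 CPM at 24 h without overlap and missed the threshold (log2 change 1.98 ± 0.64 SE, adjusted p = 0.076). Ccl24, an eotaxin, measured 4.29, 2.02, 6.83 and 7.59 CPM at 8 h and 24.0, 8.21, 7.54 and 7.47 CPM at 24 h. Its 24 h mean rested on replicate 1, and it was not called (log2 change 1.03 ± 0.48 SE, adjusted p = 0.26). The log2 change of Ccl8 was -0.60 (adjusted p = 0.22). Ccl22 lies at chr8:94745590-94751699, plus strand and Ccl17 at chr8:94810453-94812036, plus strand.

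In the list of chemokines for neutrophils and monocytes 3 rose and 1 fell among the 15 members tested (1.55% and 1.52% over all genes). The median log2 change was -0.49, and 4 rose and 1 fell without 24 h replicate 1 (3 and 2 without the 3 shallow libraries). Ccl6 and Ccl9, CC chemokines that act on CCR1, rose together. Ccl6 went from 959, 705, 724 and 717 CPM to 1842, 2121, 1884 and 1737 CPM (log2 change 1.29 ± 0.14 SE, adjusted p = 4.1e-07) and Ccl9 from 285, 219.5, 211 and 205 CPM to 672, 643, 566 and 489 CPM (log2 change 1.36 ± 0.20 SE, adjusted p = 5.7e-05). No library overlapped in either gene, and replicate 1 was the highest 8 h library in both. The control means of Ccl9 were 88.9 and 88.7 CPM, and the difference of the changes was 1.36 ± 0.28 SE (adjusted p = 0.033). For Ccl6 the control change was 0.51 (adjusted p = 0.0995, with the block 0.017) and the difference did not pass (adjusted p = 0.14). Both genes lie side by side, Ccl6 at chr11:83587882-83593087, minus strand and Ccl9 at chr11:83572919-83578636, minus strand.

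Cxcl5, a ligand of CXCR2, rose from 1.00, 1.01, 1.24 and 2.21 CPM to 7.63, 8.51, 7.44 and 7.35 CPM (5.82-fold, log2 change 2.54 ± 0.42 SE, adjusted p = 5.7e-05), without overlap. The controls held it at 3.41 ± 1.18 CPM at 8 h and 6.60 ± 1.03 CPM at 24 h, a rise called with the block (adjusted p = 0.021). Ccl7, a ligand of the monocyte receptor CCR2, was the chemokine of this list that fell, from 33.0, 23.7, 37.9 and 56.3 CPM to 10.9, 16.9, 14.6 and 11.4 CPM (log2 change -1.43 ± 0.35 SE, adjusted p = 0.015), again without overlap. The call on Ccl7 was lost without 8 h replicate 4 or 24 h replicate 4 (adjusted p 0.066 to 0.11). Ccl22, Ccl6, Ccl9 and Cxcl5 still passed with the 8 IL-4 libraries fitted alone (adjusted p 0.0074 to 0.017), and Ccl7 did not pass there (adjusted p = 0.061).

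Surface markers of IL-4 macrophages were called upward or not at all. In this list 5 rose and 0 fell among the 19 members tested (1.55% and 1.52% over all genes tested). Their median log2 change was -0.06, and 5 rose and 0 fell without 24 h replicate 1 (5 and 1 without the 3 shallow libraries). Mgl2, a galactose-type lectin of the CD301 family, rose from 8.43, 7.06, 6.21 and 6.96 CPM to 44.7, 38.2, 30.5 and 33.8 CPM (4.86-fold, log2 change 2.28 ± 0.50 SE, adjusted p = 0.0056). Clec4a2, an inhibitory C-type lectin receptor, rose from 28.1, 22.2, 26.7 and 30.1 CPM to 110.0, 76.3, 62.1 and 54.5 CPM (log2 change 1.43 ± 0.25 SE, adjusted p = 0.00083), and Itgax, which encodes CD11c, from 301, 365, 262 and 261 CPM to 679.7, 612, 706 and 765 CPM (log2 change 1.22 ± 0.20 SE, adjusted p = 0.00039). None of these 3 genes had overlapping libraries. In the controls the log2 changes were 0.67 (adjusted p = 0.78) for Mgl2, -0.11 (adjusted p = 0.93) for Clec4a2 and 0.76 (adjusted p = 0.088, with the block 0.00077) for Itgax. Mgl2 lies at chr11:70130329-70137550, plus strand and Clec4a2 at chr6:123106428-123143999, plus strand.

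The scavenger receptors Msr1 and Cd36 rose as well. Msr1 went from 154 ± 14.5 CPM to 244 ± 29.6 CPM (log2 change 0.67 ± 0.13 SE, adjusted p = 0.0029). Cd36, which takes up fatty acids and oxidised lipoproteins, measured 5223, 4644, 4578 and 3645 CPM at 8 h and 4459, 8482, 7066 and 6377 CPM at 24 h (log2 change 0.54 ± 0.14 SE, adjusted p = 0.021), and there replicate 1 at 24 h lay within the 8 h range. Mrc1, the mannose receptor CD206 and the most used surface marker of this state, measured 644, 719.6, 665 and 432 CPM at 8 h and 317, 606, 592 and 602 CPM at 24 h and was not called (log2 change -0.21 ± 0.22 SE, adjusted p = 0.66). Replicate 1 had the lowest Mrc1 level of the 24 h group, and the other 3 lay inside the 8 h range. Clec10a, the paralogue of Mgl2, measured 16.7 ± 6.64 CPM at 8 h and 13.9 ± 0.377 CPM at 24 h and was not called (adjusted p = 0.75). The call on Cd36 was lost without 8 h replicate 4 or 24 h replicates 2 or 3 (adjusted p 0.075 to 0.14). Mgl2, Clec4a2 and Itgax still passed with the 8 IL-4 libraries fitted alone (adjusted p 0.0023 to 0.046), and Msr1 and Cd36 did not pass there (adjusted p 0.18 to 0.46).

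All calls among the transcription factors and coactivators tied to this state were falls. In the list 0 rose and 3 fell among the 23 members tested (1.55% and 1.52% over all genes tested). Their median log2 change was -0.23, and 1 rose and 3 fell without 24 h replicate 1 (1 and 3 without the 3 shallow libraries). Egr2, an early growth response factor that acts downstream of STAT6, measured 203, 177, 193 and 217 CPM at 8 h and 89.3, 151, 150.1 and 136 CPM at 24 h and fell without overlap (log2 change -0.56 ± 0.14 SE, adjusted p = 0.015). Atf3, a stress-response repressor, measured 836, 821, 708 and 759.6 CPM at 8 h and 339, 559, 562 and 583 CPM at 24 h (log2 change -0.61 ± 0.15 SE, adjusted p = 0.018), with replicate 1 the lowest at 24 h. Ppargc1b, the coactivator PGC-1β, fell by 1.04 on the log2 scale (adjusted p = 0.048). Irf4 measured 102, 102, 49.7 and 39.9 CPM at 8 h and 30.5, 51.5, 54.4 and 54.7 CPM at 24 h with overlap and was not called (log2 change -0.58 ± 0.24 SE, adjusted p = 0.18). Batf3 had a log2 change of -0.86 (adjusted p = 0.068) and Pparg, the lipid receptor PPARγ, one of -0.05 (adjusted p = 0.93), neither called. The call on Egr2 was lost without 8 h replicates 3 or 4 (adjusted p 0.052 to 0.064). The call on Atf3 was lost without 24 h replicate 1 (adjusted p = 0.06). Atf3 and Ppargc1b also did not pass without the 3 shallow libraries. The 3 falls counted in each of these fits therefore include other genes. The call on Ppargc1b was lost without 8 h replicates 3 or 4 or 24 h replicates 2, 3 or 4 (adjusted p 0.12 to 0.25). Egr2, Atf3 and Ppargc1b did not pass with the 8 IL-4 libraries fitted alone (adjusted p 0.23 to 0.25).

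Immediate early genes, which answer to stimuli and handling within minutes, gave calls in the downward direction. In the list 0 rose and 6 fell among the 19 members tested (1.55% and 1.52% over all genes tested). Their median log2 change was -0.45, and 0 rose and 6 fell without 24 h replicate 1. In the controls 0 rose and 1 fell (0 and 3 of the 16 members in the fit with the block). Dusp1, a phosphatase of MAP kinases, measured 33.0, 26.2, 57.8 and 50.9 CPM at 8 h and 16.3, 19.2, 17.1 and 15.9 CPM at 24 h, with no overlap and the 8 h replicates 3 and 4 highest (log2 change -1.26 ± 0.18 SE, adjusted p = 4.6e-05). The other falls were Zfp36, an mRNA-decay factor, at -0.64 (adjusted p = 0.014), Jun at -0.45 (adjusted p = 0.02), Dusp2 at -0.83 (adjusted p = 0.03), Junb at -0.90 (adjusted p = 0.041) and Nr4a3 at -1.75 (adjusted p = 0.041). The call on Zfp36 was lost without 8 h replicates 3 or 4 or 24 h replicate 4 (adjusted p 0.066 to 0.079). The calls on Jun and Junb were lost without 8 h replicates 3 or 4 or 24 h replicates 2, 3 or 4 (adjusted p 0.054 to 0.19). The call on Dusp2 was lost without 8 h replicates 1, 3 or 4 or 24 h replicates 2, 3 or 4 (adjusted p 0.053 to 0.19). The call on Nr4a3 was lost without 8 h replicates 2 or 4 or 24 h replicates 2 or 4 (adjusted p 0.064 to 0.19). Dusp1, Zfp36, Jun, Junb and Dusp2 did not pass with the 8 IL-4 libraries fitted alone (adjusted p 0.084 to 0.37), and Nr4a3 had too few counts for that fit.

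All calls among interferon-stimulated genes were falls, where 1.52% of all genes tested were called lower. Among the 40 members tested 0 rose and 3 fell, with a median log2 change of -0.40. In this list 0 rose and 7 fell without 24 h replicate 1 (0 and 6 without the 3 shallow libraries). The control median was -0.90 with 0 rises and 1 fall (0 and 7 of the 37 members in the fit with the block). Their summed level was 875, 849.8, 1088 and 1142 CPM at 8 h and 1464, 687, 731 and 699 CPM at 24 h, highest in replicate 1. In the controls it was 2684, 870.2, 795 and 796 CPM at 8 h and 936, 712, 785 and 722 CPM at 24 h, with replicate 1 at 8 h far above the other 7. The 3 called genes were Irf1 at -0.77 (adjusted p = 0.038), Oasl2 at -0.70 (adjusted p = 0.027) and Oas3 at -1.34 (adjusted p = 0.022), and Zbp1 was next at -0.82 (adjusted p = 0.08). Among the NF-kB feedback genes 0 rose and 1 fell among the 17 members tested (1.55% and 1.52% over all genes tested). Their median log2 change was -0.10, and 1 rose and 2 fell without 24 h replicate 1. Relb, a subunit of the noncanonical pathway, was the one, at -1.28 (adjusted p = 0.0087), and Tnip3 at 0.45 (adjusted p = 0.068), Nfkb1 at -0.56 (adjusted p = 0.13) and Traf1 at -0.81 (adjusted p = 0.14) were not called. The calls on Irf1 and Oasl2 were lost without 8 h replicates 2, 3 or 4 or 24 h replicates 2, 3 or 4 (adjusted p 0.0502 to 0.13). The call on Oas3 was lost without 8 h replicates 1, 2 or 3 or 24 h replicates 2, 3 or 4 (adjusted p 0.055 to 0.12). The call on Relb was lost without 8 h replicate 3 (adjusted p = 0.12). Irf1, Oasl2, Oas3 and Relb did not pass with the 8 IL-4 libraries fitted alone (adjusted p 0.21 to 0.26).

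A set of chaperones and folding enzymes of the endoplasmic reticulum rose between 8 h and 24 h. In this list 7 rose and 0 fell among the 23 members tested (1.55% and 1.52% over all genes tested). The median log2 change was 0.34, 8 rose and 0 fell without 24 h replicate 1, and 18 of 23 changes were above 0. In the controls no member was called and the median was -0.07, and with the block 1 rose and 2 fell. Pdia6, a disulfide isomerase, measured 145, 131, 132 and 149.6 CPM at 8 h and 237, 230.3, 229 and 220.4 CPM at 24 h (log2 change 0.71 ± 0.10 SE, adjusted p = 4.6e-05). Hspa5, the Hsp70-type chaperone BiP, measured 633, 612, 618 and 591 CPM at 8 h and 1083, 974, 966 and 962 CPM at 24 h (log2 change 0.70 ± 0.13 SE, adjusted p = 0.0016). In both genes the 4 libraries of each time were close to each other and the times did not overlap. The controls measured Pdia6 at 139 ± 7.18 CPM at 8 h and 125 ± 6.72 CPM at 24 h and Hspa5 at 607 ± 77.7 CPM at 8 h and 511 ± 39.4 CPM at 24 h, and the differences of the changes were 0.86 ± 0.14 SE (adjusted p = 0.0069) and 0.95 ± 0.19 SE (adjusted p = 0.033). These 2 genes were the list's members called for a difference from the controls. Both promoter windows printed above carry 1 ERSE.

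Calr, the lectin chaperone calreticulin, measured 400.3, 400.2, 491 and 593 CPM at 8 h and 1564, 734, 865 and 902 CPM at 24 h (log2 change 1.10 ± 0.20 SE, adjusted p = 0.001). All 24 h libraries were above the 8 h libraries, with replicate 1 the highest. Hsp90b1, the Hsp90 paralogue GRP94, measured 463, 489, 483 and 574 CPM at 8 h and 573, 831, 831 and 817 CPM at 24 h (log2 change 0.61 ± 0.14 SE, adjusted p = 0.011), and replicate 1 lay at the top of the 8 h range while the other 3 lay above it. Its window holds 2 ERSE matches and that of Calr holds 1. The windows of the 16 members not called were not examined, so matches cannot be compared between called and uncalled members. The 3 called members without a match rose by 0.65 (adjusted p = 0.0043) for Pdia3, 0.42 (adjusted p = 0.0062) for P4hb, both disulfide isomerases, and 0.61 (adjusted p = 0.048) for Sdf2l1, a cofactor of BiP. Xbp1, the transcription factor of the unfolded protein response, had a log2 change of 0.30 (adjusted p = 0.11), and Pdia4, another isomerase, -0.59 (adjusted p = 0.23). Pdia4 measured 417, 444, 242 and 273 CPM at 8 h and 46.8, 271, 298 and 280.2 CPM at 24 h, so members of the list did not all move one way. The call on Sdf2l1 was lost without 8 h replicates 1, 2 or 3 or 24 h replicates 2, 3 or 4 (adjusted p 0.076 to 0.12). Pdia6, Hspa5, Calr, Hsp90b1, Pdia3, P4hb and Sdf2l1 did not pass with the 8 IL-4 libraries fitted alone (adjusted p 0.13 to 0.44).

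**Figure D3:**
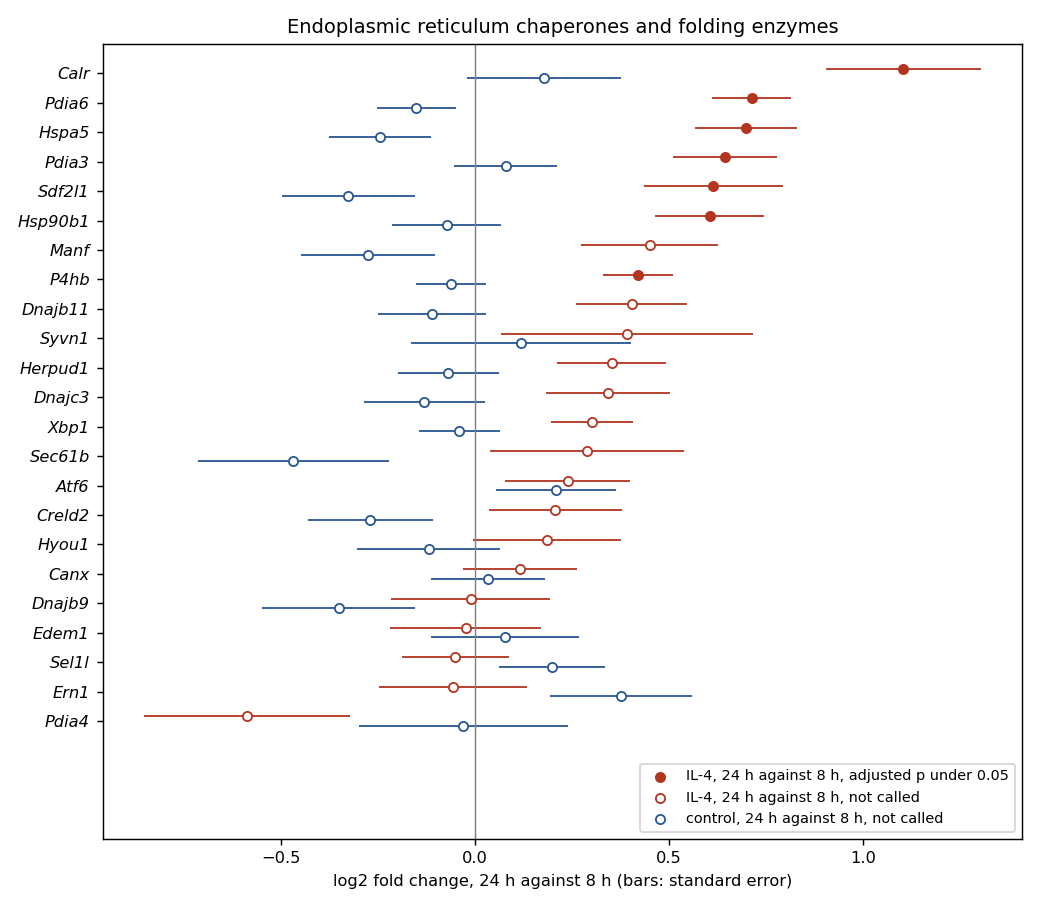
Each row is 1 of the 23 tested chaperones and folding enzymes, ordered by its change in IL-4, with the log2 change from 8 h to 24 h in IL-4 (red) and in controls (blue) and bars for the standard error. Filled points mark an adjusted p under 0.05, which 7 members reached in IL-4 and none in the controls in the fit without the replicate block.

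Several genes of lipid handling rose in IL-4, and some of them rose in the controls too. Among targets of the oxysterol receptor LXR and genes of cholesterol efflux 5 rose and 2 fell among the 17 members tested. Over all genes tested the shares were 1.55% and 1.52%. The list had a median log2 change of -0.0047, and 5 rose and 3 fell without 24 h replicate 1. The controls had 3 rises and no fall (5 and 0 with the block). Scd2, a stearoyl-CoA desaturase, measured 34.6, 33.3, 27.3 and 27.8 CPM at 8 h and 47.9, 173, 169 and 159 CPM at 24 h (4.56-fold, log2 change 2.19 ± 0.24 SE, adjusted p = 4.1e-07). Abca1, the cholesterol exporter, measured 46.9, 57.0, 45.4 and 26.9 CPM at 8 h and 91.5, 175, 188 and 178 CPM at 24 h (3.66-fold, log2 change 1.87 ± 0.21 SE, adjusted p = 7.2e-07). In both genes every 24 h library lay above the 8 h libraries and replicate 1 was the lowest at 24 h. Mylip, the ubiquitin ligase that degrades the LDL receptor, measured 7.43, 5.55, 9.94 and 5.69 CPM at 8 h and 8.71, 16.6, 13.5 and 15.7 CPM at 24 h (log2 change 1.05 ± 0.20 SE, adjusted p = 0.0011), and here replicate 1 lay inside the 8 h range. The control changes were 0.98 (adjusted p = 0.03) for Scd2, 1.31 (adjusted p = 0.00059) for Abca1 and 0.89 (adjusted p = 0.0014) for Mylip, all called, and no difference from the IL-4 change passed (adjusted p 0.17 to 0.99).

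Lpcat3, a phospholipid acyltransferase, rose by 0.75 (adjusted p = 0.002) and Scd1 by 1.64 (adjusted p = 0.025). Nr1h2, which encodes LXRβ, and Apoc2, an apolipoprotein, were the members that fell, at -0.55 (adjusted p = 0.041) and -1.19 (adjusted p = 0.024). Abcg1, another cholesterol exporter, measured 323 ± 15.4 CPM at 8 h and 321 ± 38.2 CPM at 24 h and was not called (adjusted p = 0.996). For sterol synthesis 3 rose and 0 fell among the 23 members tested (1.55% and 1.52% over all genes tested). The median log2 change was 0.26, and 21 of 23 changes were above 0. In this list 7 rose and 0 fell without 24 h replicate 1 (6 and 0 without the 3 shallow libraries). Lss, lanosterol synthase, measured 16.7, 17.7, 14.9 and 16.5 CPM at 8 h and 24.0, 24.6, 23.8 and 25.3 CPM at 24 h, without overlap (log2 change 0.57 ± 0.12 SE, adjusted p = 0.0062). Hsd17b7 rose by 1.10 (adjusted p = 0.012) and Cyp51 by 0.52 (adjusted p = 0.023), and Stard4, a sterol carrier, had a log2 change of 0.65 (adjusted p = 0.065). The calls on Scd1, Nr1h2 and Cyp51 were lost without 8 h replicates 3 or 4 or 24 h replicates 2, 3 or 4 (adjusted p 0.059 to 0.22). The call on Apoc2 was lost without 8 h replicates 3 or 4 or 24 h replicates 2 or 3 (adjusted p 0.064 to 0.28). The call on Hsd17b7 was lost without 8 h replicate 4 or 24 h replicate 2 (adjusted p 0.053 to 0.091). Scd2 and Abca1 still passed with the 8 IL-4 libraries fitted alone (adjusted p 0.018 to 0.021), and Mylip, Lpcat3, Scd1, Nr1h2, Apoc2, Lss, Hsd17b7 and Cyp51 did not pass there (adjusted p 0.16 to 0.61). In the controls, the Scd2 call was lost without control 8 h replicates 1, 3 or 4 or control 24 h replicates 1, 2 or 4 (adjusted p 0.078 to 0.11).

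**Figure D4:**
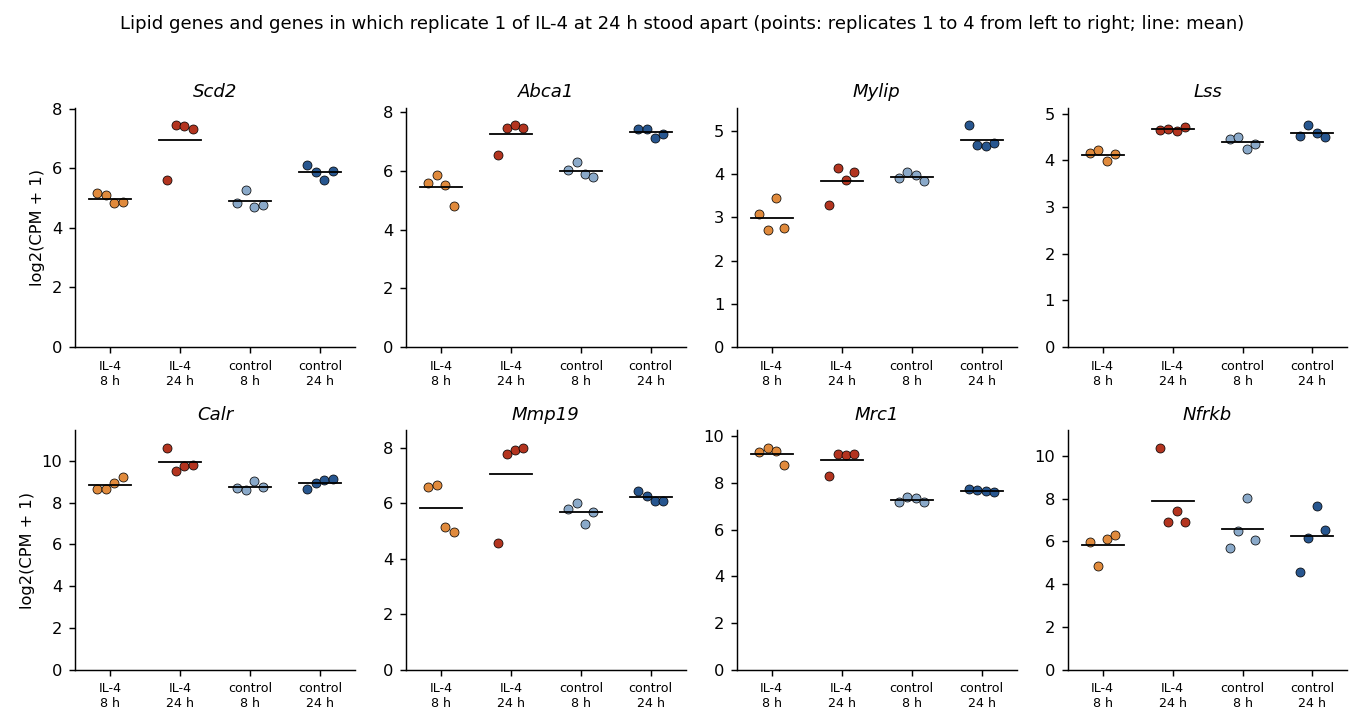
Points are log2(CPM + 1) by library, as in the plots of rising and falling genes, for lipid genes and for genes in which replicate 1 at 24 h in IL-4 stood apart. Replicate 1 has the lowest 24 h value in Scd2 (47.9 CPM), Abca1, Mylip, Mmp19 and Mrc1 and the highest in Calr and Nfrkb (1322 CPM).

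Over all genes 859 were called higher and 486 lower without 24 h replicate 1, and 410 and 442 without the 3 shallow libraries. Energy metabolism gave single calls with all libraries, where 1.55% of all genes tested were called higher and 1.52% lower. A single call does not set lists of this size apart from those shares. In fatty acid uptake and oxidation 1 rose and 0 fell among the 28 members tested, with a median log2 change of 0.14, and 3 rose and 0 fell without 24 h replicate 1 (2 and 0 without the 3 shallow libraries). Lpl, lipoprotein lipase, was the one, at 0.53 (adjusted p = 0.031), and Hadha at 0.49 (adjusted p = 0.084), Cpt1a at 0.41 (adjusted p = 0.12) and Hadh at 1.11 (adjusted p = 0.12) were not called. In the list for the tricarboxylic acid cycle, which also holds cytosolic enzymes, 1 rose and 0 fell among the 21 members tested. The median log2 change was 0.17, and 4 rose and 0 fell without 24 h replicate 1 (3 and 0 without the 3 shallow libraries). Idh1, the cytosolic NADP-dependent isocitrate dehydrogenase, rose by 0.61 (adjusted p = 0.0069). The cytosolic Mdh1 (0.39, adjusted p = 0.11) and Aco1 (0.39, adjusted p = 0.13), and Cs (0.34, adjusted p = 0.12), were not called. In the nuclear-coded respiratory chain 1 rose and 0 fell among the 32 members tested, with a median log2 change of 0.17, and 1 rose and 1 fell without 24 h replicate 1 (1 and 1 without the 3 shallow libraries). Atp5b, a subunit of the ATP synthase, was called at 0.48 (adjusted p = 0.023), and Uqcrc1 at -0.49 (adjusted p = 0.14), Cox8a at 0.49 (adjusted p = 0.24) and Uqcrb at 0.59 (adjusted p = 0.27) were not. Among mitochondrially coded messengers 1 rose and 0 fell among the 11 members tested, with a median log2 change of 0.52, and 5 rose and 0 fell without 24 h replicate 1 (2 and 0 without the 3 shallow libraries). The call was mt-Nd4 at 0.75 (adjusted p = 0.035), and the log2 changes of mt-Nd1, mt-Nd5 and mt-Atp8 were 0.52 (adjusted p = 0.11), 0.65 (adjusted p = 0.14) and 0.88 (adjusted p = 0.11).

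Both calls in glycolysis were falls, where 1.52% of all genes tested were called lower. In the list of glycolysis and lactate export 0 rose and 2 fell among the 22 members tested, with a median log2 change of -0.05, and 3 rose and 2 fell without 24 h replicate 1 (0 and 1 without the 3 shallow libraries). Slc2a1, the glucose transporter GLUT1, measured 91.6, 82.8, 96.3 and 89.2 CPM at 8 h and 43.6, 57.7, 58.6 and 55.3 CPM at 24 h, without overlap (log2 change -0.72 ± 0.14 SE, adjusted p = 0.0018). Hk2, a hexokinase, fell at -0.49 (adjusted p = 0.011). Gapdh (0.83, adjusted p = 0.0501) and Hif1a (0.40, adjusted p = 0.2) were not called, and the 24 h mean of Gapdh rested on replicate 1, at 729.9 CPM against 223, 250.2 and 269 CPM. Among Nrf2 targets 1 rose and 0 fell among the 18 members tested (1.55% and 1.52% over all genes tested). Their median log2 change was 0.04, and 2 rose and 1 fell without 24 h replicate 1 (1 and 1 without the 3 shallow libraries). Slc48a1, a heme transporter, rose by 0.74 (adjusted p = 0.0064), and G6pdx at 0.39 (adjusted p = 0.19), Taldo1 at -0.27 (adjusted p = 0.34) and Gsr at 0.37 (adjusted p = 0.28) were not called. The calls on Lpl and mt-Nd4 were lost without 8 h replicates 1 or 2 or 24 h replicate 2 (adjusted p 0.055 to 0.16). The call on Atp5b was lost without 8 h replicates 2 or 4 or 24 h replicate 1 (adjusted p 0.059 to 0.069). The call on Hk2 was lost without 8 h replicate 3 (adjusted p = 0.072). Lpl, Idh1, Atp5b, mt-Nd4, Slc2a1, Hk2 and Slc48a1 did not pass with the 8 IL-4 libraries fitted alone (adjusted p 0.1 to 0.57).

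Of cell cycle and DNA replication genes 4 rose and 1 fell among the 35 members tested (1.55% and 1.52% over all genes tested). The median log2 change was 0.20, and 9 rose and 2 fell without 24 h replicate 1 (4 and 0 without the 3 shallow libraries). Top2a, the topoisomerase of dividing cells, measured 12, 13.1, 12.4 and 10.8 CPM at 8 h and 18.5, 24.0, 25.5 and 26.6 CPM at 24 h, without overlap (log2 change 1.03 ± 0.17 SE, adjusted p = 0.00021). The spindle and mitosis genes Ccnb2 (1.52, adjusted p = 0.025), Bub1 (1.57, adjusted p = 0.035) and Bub1b (0.95, adjusted p = 0.031) rose. Mki67, the proliferation marker Ki-67, was not called (0.89, adjusted p = 0.09), and the member that fell was Cdt1, a replication licensing factor, at -0.63 (adjusted p = 0.039). No member was called in the controls, and 1 rose with the block. The calls on Ccnb2 and Bub1b were lost without 8 h replicate 4 or 24 h replicate 3 (adjusted p 0.0504 to 0.17). The call on Bub1 was lost without 8 h replicates 2 or 4 or 24 h replicates 2, 3 or 4 (adjusted p 0.072 to 0.17). The call on Cdt1 was lost without 8 h replicates 3 or 4 or 24 h replicates 2, 3 or 4 (adjusted p 0.061 to 0.18). Top2a, Ccnb2, Bub1b and Cdt1 did not pass with the 8 IL-4 libraries fitted alone (adjusted p 0.057 to 0.51), and Bub1 had too few counts for that fit.

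IL-4 is known to drive macrophage fusion into giant cells. In the list of fusion and osteoclast-type genes 3 rose and 1 fell among the 20 members tested (1.55% and 1.52% over all genes). Their median log2 change was -0.14, and 4 rose and 2 fell without 24 h replicate 1 (1 and 3 without the 3 shallow libraries). Dcstamp and Ocstamp encode the membrane proteins that fusion needs. Dcstamp measured 5.29, 7.06, 4.35 and 6.64 CPM at 8 h and 14.2, 11.6, 12.7 and 10.4 CPM at 24 h (log2 change 1.03 ± 0.23 SE, adjusted p = 0.0069) and Ocstamp 4.43, 4.54, 5.59 and 3.48 CPM at 8 h and 10.9, 12.3, 14.3 and 16.01 CPM at 24 h (log2 change 1.62 ± 0.44 SE, adjusted p = 0.032). Neither overlapped between the times. Acp5, tartrate-resistant acid phosphatase, measured 185, 181, 125 and 152 CPM at 8 h and 495, 248, 259 and 253 CPM at 24 h (log2 change 0.95 ± 0.20 SE, adjusted p = 0.0043), with replicate 1 far above the other 24 h libraries, which still lay above every 8 h library. Cd47, the ligand of SIRPα, fell from 339.6 ± 28.4 CPM to 254 ± 29.2 CPM (adjusted p = 0.011). The call on Ocstamp was lost without 8 h replicates 1, 2 or 4 or 24 h replicates 2, 3 or 4 (adjusted p 0.055 to 0.12). Ocstamp still passed with the 8 IL-4 libraries fitted alone (adjusted p = 0.013), and Dcstamp, Acp5 and Cd47 did not pass there (adjusted p 0.13 to 0.38).

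Proteases and growth factors of the extracellular matrix changed in both directions. Of the 23 members tested 3 rose and 6 fell (1.55% and 1.52% over all genes tested). The median log2 change was 0.14, and 3 rose and 7 fell without 24 h replicate 1 (1 and 7 without the 3 shallow libraries). Hbegf, a heparin-binding ligand of the EGF receptor, measured 19.9, 15.6, 22.4 and 22.5 CPM at 8 h and 9.80, 7.92, 6.22 and 6.28 CPM at 24 h (log2 change -1.50 ± 0.21 SE, adjusted p = 2.3e-05). Plau, urokinase, measured 71.2, 80.2, 78.9 and 84.1 CPM at 8 h and 15.3, 33.0, 31.7 and 31.4 CPM at 24 h (log2 change -1.41 ± 0.27 SE, adjusted p = 0.0023), and Mmp13, a collagenase, 259, 243, 204 and 214 CPM at 8 h and 51.2, 95.4, 91.4 and 89.0 CPM at 24 h (log2 change -1.46 ± 0.31 SE, adjusted p = 0.0049). These genes fell without overlap, and replicate 1 was the lowest 24 h library for Plau and Mmp13 but the highest for Hbegf. Spp1, osteopontin, fell by 0.78 on the log2 scale (adjusted p = 0.0062) and Ecm1, a secreted matrix protein, fell by 0.63 (adjusted p = 0.0088). The call on Ecm1 was lost without 8 h replicate 4 or 24 h replicate 2 (adjusted p 0.051 to 0.058). Hbegf, Plau and Mmp13 still passed with the 8 IL-4 libraries fitted alone (adjusted p 0.011 to 0.018), and Spp1 and Ecm1 did not pass there (adjusted p 0.15 to 0.22).

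The matrix genes that rose were Mmp19, Sparc and Lox. Mmp19, a metalloproteinase, measured 95.3, 99.9, 34.2 and 30.4 CPM at 8 h and 22.9, 217, 242 and 254 CPM at 24 h (log2 change 1.53 ± 0.38 SE, adjusted p = 0.019), with replicate 1 below every other library of both times. Without that library its log2 change was 1.88. Lox, the collagen-crosslinking lysyl oxidase, rose by 1.15 (adjusted p = 0.015) and Sparc, a collagen-binding protein, by 0.85 (adjusted p = 0.013). Mmp8 had a log2 change of 1.07 (adjusted p = 0.22). Sparc was also called in the controls, at 0.79 (adjusted p = 0.048), a call lost without any single control library other than 8 h replicate 3 (adjusted p 0.052 to 0.23) and under relative log expression factors. The call on Mmp19 was lost without 8 h replicates 3 or 4 or 24 h replicates 2, 3 or 4 (adjusted p 0.059 to 0.11). The call on Lox was lost without 8 h replicate 4 (adjusted p = 0.085). The call on Sparc was lost without 8 h replicate 1 (adjusted p = 0.052). Mmp19, Lox and Sparc did not pass with the 8 IL-4 libraries fitted alone (adjusted p 0.081 to 0.43).

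In the list of complement and clearance of dead cells 2 rose and 1 fell among the 21 members tested. Over all genes tested the shares were 1.55% and 1.52%. The list had a median log2 change of 0.01, and 3 rose and 2 fell without 24 h replicate 1. C1qa, a chain of the first complement component, measured 96.9, 95.4, 144 and 127 CPM at 8 h and 56.6, 52.3, 50.8 and 46.1 CPM at 24 h and fell without overlap (log2 change -1.18 ± 0.18 SE, adjusted p = 0.00012). Pros1, protein S, a bridge to dying cells, rose by 0.77 (adjusted p = 0.013) and the central complement component C3 by 0.81 (adjusted p = 0.034). Cfb, complement factor B, had a log2 change of -1.59 (adjusted p = 0.055). The call on Pros1 was lost without 8 h replicate 4 or 24 h replicates 2, 3 or 4 (adjusted p 0.054 to 0.067). The call on C3 was lost without 8 h replicates 3 or 4 or 24 h replicates 3 or 4 (adjusted p 0.096 to 0.18). C1qa still passed with the 8 IL-4 libraries fitted alone (adjusted p = 0.039), and Pros1 and C3 did not pass there (adjusted p 0.34 to 0.51).

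Among the 10 largest rises of genes called, without overlap and with the 8 libraries averaging 1 CPM or more, were Ear2, Apln, Rnase2a, Retnla, Slc36a2, Rbp4, Nfrkb, Cd226 and Chil3. They came from 271 such genes, 132 higher and 139 lower. Apln, which encodes the peptide ligand apelin, measured 0.286, 0, 0 and 0.316 CPM at 8 h and 2.18, 2.80, 3.20 and 3.79 CPM at 24 h. At 8 h it had 3 counts over the 4 libraries, so the ratio was 14.0 (95% counting interval 4.70 to 68.8), with edgeR adjusted p = 0.0013. The interval covers counting error only. Rbp4, the retinol carrier, measured 1.57, 1.51, 1.86 and 1.27 CPM at 8 h and 19.6, 11.0, 9.80 and 11.0 CPM at 24 h (log2 change 2.96 ± 0.57 SE, adjusted p = 0.001), and Cd226, an adhesion receptor of the immunoglobulin family, 1.00, 0.505, 0 and 0.316 CPM at 8 h and 1.09, 4.85, 4.62 and 3.32 CPM at 24 h (log2 change 2.68 ± 0.64 SE, adjusted p = 0.0069). Both rose, and replicate 1 was the highest 24 h library for Rbp4 and the lowest for Cd226.

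Nfrkb, a subunit of the INO80 chromatin remodelling complex, measured 61.4, 28.3, 69.0 and 78.5 CPM at 8 h and 1322, 119.6, 173 and 121 CPM at 24 h (log2 change 2.82 ± 0.75 SE, adjusted p = 0.039). Its large change rested on replicate 1, and without it the log2 change was 1.25 (adjusted p = 0.26). The call on Nfrkb was lost without 8 h replicates 1, 2, 3 or 4 or 24 h replicate 1 (adjusted p 0.064 to 0.26). Slc36a2, Apln and Rbp4 still passed with the 8 IL-4 libraries fitted alone (adjusted p 0.0012 to 0.013), and Nfrkb did not pass there (adjusted p = 0.22), and Cd226 had too few counts for that fit.

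The 10 largest falls were Pcdhb4, Mrgprg, Slc22a19, Lhx2, Lef1 and Rab15 and 4 predicted genes without a symbol of their own. Mrgprg, a Mas-related G protein-coupled receptor, measured 4.57, 6.06, 4.35 and 5.69 CPM at 8 h and 0, 0.261, 0.565 and 0.237 CPM at 24 h (log2 change -3.91 ± 0.66 SE, adjusted p = 0.0014), with near 0 counts in the controls at 0 ± 0 CPM at 8 h and 0.0236 ± 0.0473 CPM at 24 h. Rab15, a small GTPase of endosomes, measured 13.7, 11.6, 7.46 and 6.96 CPM at 8 h and 4.36, 1.98, 1.60 and 2.13 CPM at 24 h (log2 change -2.25 ± 0.39 SE, adjusted p = 0.00093), and Lhx2, a LIM homeobox factor, 2.57, 2.02, 3.73 and 2.85 CPM at 8 h and 0, 0.485, 0.283 and 0.593 CPM at 24 h (log2 change -2.59 ± 0.68 SE, adjusted p = 0.02). As the rule of choice requires, all 24 h libraries lay below all 8 h libraries in each of the 10 largest falls. Pcdhb4, a protocadherin, measured 0.429, 0.505, 28.0 and 2.21 CPM at 8 h and 0, 0.336, 0.188 and 0.119 CPM at 24 h (log2 change -4.88 ± 1.01 SE, adjusted p = 0.0043). Its 8 h mean came mostly from replicate 3, and without it the gene was not called. Slc22a19, an organic anion transporter, measured 1.71, 8.58, 2.49 and 1.90 CPM at 8 h and 0, 0.448, 0.283 and 0.237 CPM at 24 h (log2 change -3.28 ± 0.95 SE, adjusted p = 0.043), with 8 h replicate 2 well above the rest. Lef1, a transcription factor of the Wnt pathway, measured 1.43, 3.53, 1.24 and 1.58 CPM at 8 h and 1.09, 0.485, 0.0942 and 0.356 CPM at 24 h (log2 change -2.31 ± 0.60 SE, adjusted p = 0.025), with replicate 2 also the highest at 8 h. The call on Pcdhb4 was lost without 8 h replicate 3 (adjusted p = 0.27). The call on Slc22a19 was lost without 8 h replicates 2, 3 or 4 or 24 h replicates 2, 3 or 4 (adjusted p 0.061 to 0.15). The call on Lhx2 was lost without 8 h replicates 3 or 4 or 24 h replicates 2 or 3 (adjusted p 0.054 to 0.077). The call on Lef1 was lost without 8 h replicates 2 or 4 or 24 h replicates 2, 3 or 4 (adjusted p 0.052 to 0.13). Mrgprg, Rab15, Lhx2, Csf3r and Ms4a6b still passed with the 8 IL-4 libraries fitted alone (adjusted p 0.0023 to 0.038), and Dab2 did not pass there (adjusted p = 0.23), and Pcdhb4, Slc22a19 and Lef1 had too few counts for that fit.

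Without the 3 shallow libraries 71 of the 96 called genes named in the text still passed. The 25 that did not were Acp5, Atf3, Atp5b, Cdt1, Chil4, Col1a2, Dab2, Hk2, Igf1, Lef1, Lox, Lpl, Nfrkb, Nr4a3, Oasl2, Ocstamp, Pcdhb4, Ppargc1b, Relb, Sdf2l1, Slc22a19, Slc48a1, Sparc, Vegfa and mt-Nd4 (adjusted p 0.051 to 0.53). List counts given without some libraries can therefore hold other members than those called with all libraries.

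In 14 of the 40 lists edgeR called no member. They held 214 tested members, of which 38 had an unadjusted p under 0.05, and DESeq2 called 9. Of all 14537 genes tested, 1199 higher and 1410 lower genes had such a p, and DESeq2 called 724. Without 24 h replicate 1 edgeR called 25, of which 11 were falls among the cytosolic ribosomal proteins. That fit called 1345 genes in all. Inflammatory cytokines and enzymes were one of these lists (18 tested members, median -0.58, smallest adjusted p = 0.12). The 4 smallest p-values there belonged to members with log2 changes of Osm -0.89, Csf3 -2.07, Il1a 0.51 and Il6 -1.41. Csf3 had 3 counts over the 8 h libraries and 2 at 24 h, a ratio of 0.196 with a counting interval of 0.0164 to 1.71, which includes no change. The summed level of the list was 116, 102, 186 and 180.0 CPM at 8 h and 322, 111, 127 and 115 CPM at 24 h, highest in replicate 1. In the controls it was 837, 105, 112 and 120.3 CPM at 8 h. Costimulation and checkpoint ligands were not called (15 tested members, median -0.28, smallest adjusted p = 0.16), with log2 changes of Cd83 0.37, Tnfsf4 -3.72, Cd80 0.48 and Cd40 -1.16. Pdcd1lg2, the checkpoint ligand PD-L2, measured 77.0, 65.6, 55.9 and 75.6 CPM at 8 h and 49.0, 45.5, 48.0 and 49.1 CPM at 24 h, with every 24 h library below every 8 h library but no call (log2 change -0.53 ± 0.31 SE, adjusted p = 0.37). The controls held Pdcd1lg2 at 0.731 ± 0.458 CPM at 8 h and 1.20 ± 0.494 CPM at 24 h.

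MHC class II genes gave no call in IL-4 (13 tested members, median 0.06, smallest adjusted p = 0.055). In the controls 3 fell, with a median of -0.57 (4 fell of the 10 members in the fit with the block). No difference between the 2 changes passed for the members named here, whose IL-4 log2 changes were H2-DMb1 0.52, H2-DMa 0.68, H2-Oa -2.42 and Ciita 0.67. H2-Oa rested on 5 counts at 8 h and 3 at 24 h. Amino acid stress genes under Atf4 (19 tested members, median -0.03, smallest adjusted p = 0.1) included Slc3a2 -0.39, Trib3 -0.46, Aldh1l2 0.81 and Ppp1r15a -0.24. Arginine and polyamine metabolism (20 tested members, median -0.08, smallest adjusted p = 0.09) included Sms 0.45, Slc7a2 -0.57, Amd1 0.45 and Pycr1 -1.07. Lysosome and cathepsin genes (26 tested members, median -0.06, smallest adjusted p = 0.12) included Ctsc 0.32, Cd63 0.47, Ctsb -0.29 and Ctsh 0.34, and iron handling (14 tested members, median 0.19, smallest adjusted p = 0.17) Ireb2 0.45, Slc40a1 1.79, Slc11a2 -0.44 and Trf 0.63. Cytosolic ribosomal proteins (36 tested members, median -0.13, smallest adjusted p = 0.079) included Rps27a -0.66, Rpl32 -0.51, Rpl19 -0.49 and Rpl24 -0.85, beside the uneven sums per library given above. Of these 36 members 11 fell without 24 h replicate 1 and 12 without the 3 shallow libraries. Lysosome and cathepsin genes gave 3 rises and 1 fall without 24 h replicate 1 (1 and 2 without the 3 shallow libraries), the Atf4 genes 0 and 2 (1 and 2), iron handling 1 and 0 (1 and 0), MHC class II 1 and 0 (0 and 0) and the costimulation list 1 and 0 (0 and 0). Slc40a1, the iron exporter ferroportin, had 3 counts over the 8 h libraries and 40 at 24 h, a ratio of 3.92 (counting interval 1.25 to 19.8).

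The 2 lists that follow held 1 call each, where 1.55% of all genes tested were called higher and 1.52% lower. Among Toll-like receptors and adaptors 1 rose and 0 fell among the 20 members tested, with a median log2 change of 0.08, and 3 rose and 0 fell without 24 h replicate 1 (2 and 0 without the 3 shallow libraries). Tlr13, a receptor for bacterial RNA, was the one, at 0.67 (adjusted p = 0.045), and Irak2 at -0.55 (adjusted p = 0.099), Tlr9 at 1.89 (adjusted p = 0.13) and Tlr4 at 0.53 (adjusted p = 0.14) were not called. In the list of macrophage identity 0 rose and 1 fell among the 20 members tested, with a median log2 change of -0.12, and 1 rose and 1 fell without 24 h replicate 1 (1 and 1 without the 3 shallow libraries). Spi1, the lineage factor PU.1, fell at -0.46 (adjusted p = 0.019), and Lyz1 at -0.56 (adjusted p = 0.2), Cd14 at -0.44 (adjusted p = 0.2) and Fcgr1 at 0.50 (adjusted p = 0.22) were not called. The call on Tlr13 was lost without 8 h replicates 3 or 4 or 24 h replicates 2, 3 or 4 (adjusted p 0.089 to 0.22). The call on Spi1 was lost without 8 h replicates 3 or 4 or 24 h replicates 2 or 4 (adjusted p 0.075 to 0.102). Tlr13 and Spi1 did not pass with the 8 IL-4 libraries fitted alone (adjusted p 0.42 to 0.44).

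**Figure D5:**
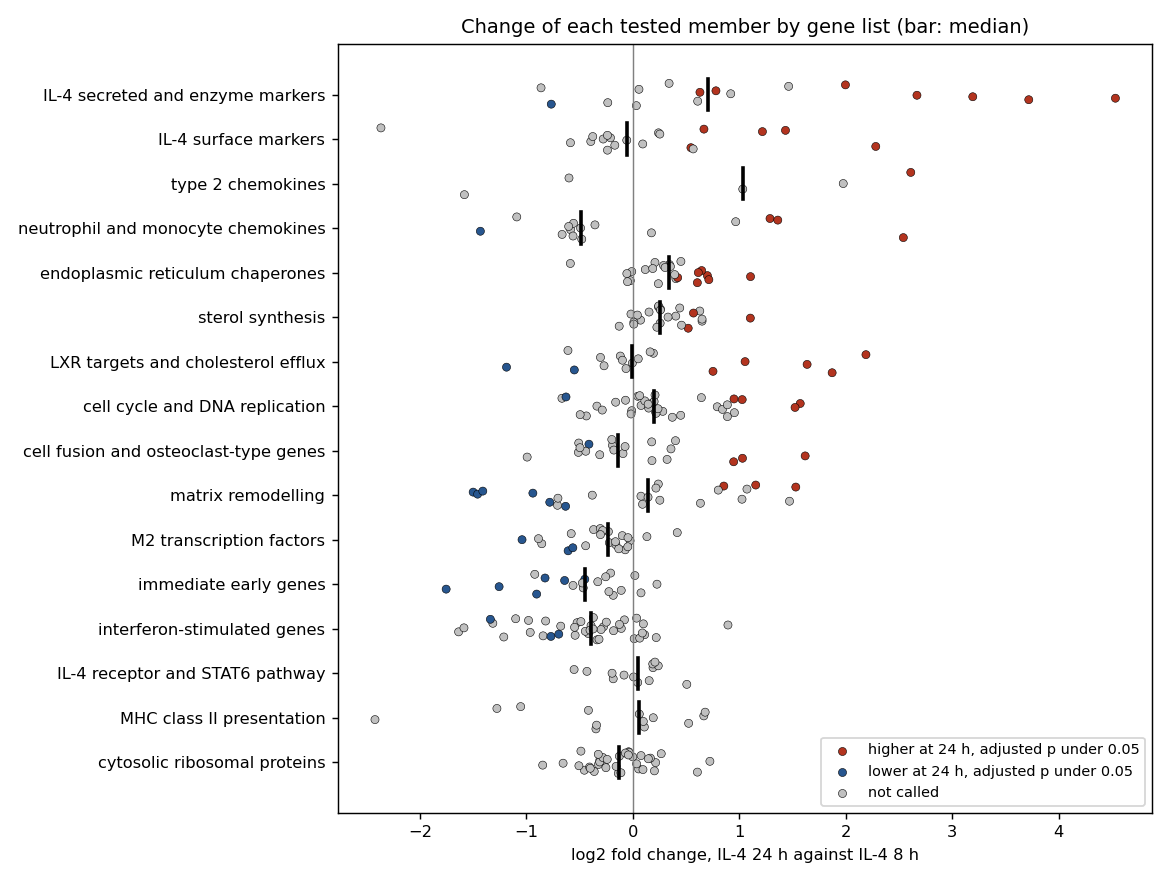
Each point is the log2 change of 1 tested member between 8 h and 24 h in IL-4, by list, with a bar at the list's median. Red points rose and blue points fell at an adjusted p under 0.05, as 7 of 23 chaperones and 6 of 19 immediate early genes did.

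Markers of other cell types that an adherent peritoneal culture can hold were examined beside the 3.07% of all genes tested that were called. Mesothelial and fibroblast markers gave the most calls: 3 rose and 1 fell among the 16 members tested, with a median log2 change of 0.81, and 4 rose and 1 fell without 24 h replicate 1. Their summed level was 413, 402, 506 and 487 CPM at 8 h and 660.1, 474, 467 and 473 CPM at 24 h, and in the controls 411 to 431 CPM at 8 h and 461 to 510.1 CPM at 24 h. Col3a1, a fibrillar collagen, measured 17.3, 12.1, 14.3 and 14.9 CPM at 8 h and 28.3, 40.4, 42.2 and 38.9 CPM at 24 h, without overlap (log2 change 1.36 ± 0.24 SE, adjusted p = 0.00077). Wt1, a transcription factor of mesothelium, measured 3.00, 3.53, 3.73 and 3.16 CPM at 8 h and 2.18, 9.52, 9.42 and 9.25 CPM at 24 h (log2 change 1.38 ± 0.33 SE, adjusted p = 0.011), with replicate 1 below every 8 h library and the other 3 above them. Col1a2 rose by 1.05 (adjusted p = 0.017), and Pdpn, podoplanin, fell by 0.54 (adjusted p = 0.014). With bulk RNA, a change in the number of such cells and a change in transcript per cell cannot be told apart. Their part in the matrix changes, in which Sparc and Lox rose, was not tested. The call on Col1a2 was lost without 8 h replicate 2 (adjusted p = 0.058). The call on Pdpn was lost without 8 h replicate 3 or 24 h replicate 2 (adjusted p 0.058 to 0.084). Col3a1 still passed with the 8 IL-4 libraries fitted alone (adjusted p = 0.013), and Wt1, Col1a2 and Pdpn did not pass there (adjusted p 0.13 to 0.28).

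Among T and NK cell markers 0 rose and 1 fell among the 10 members tested, with a median log2 change of -0.74, and 0 rose and 1 fell without 24 h replicate 1, and Cd3d, a chain of the T cell receptor complex, was the one (0.967 ± 0.361 CPM at 8 h and 0.191 ± 0.158 CPM at 24 h, log2 change -2.01 ± 0.56 SE, adjusted p = 0.032). The summed level of this list, 1003, 989, 891 and 767 CPM at 8 h and 475, 962, 965 and 937 CPM at 24 h, was almost all Il7r, at 904 ± 109 CPM at 8 h and 829 ± 241 CPM at 24 h. The log2 changes of Lck, Trac and Nkg7 were -0.64 (adjusted p = 0.45), -1.66 (adjusted p = 0.18) and -1.18 (adjusted p = 0.45). For neutrophil markers 0 rose and 1 fell among the 6 members tested, with a median log2 change of 0.07, and 0 rose and 1 fell without 24 h replicate 1, and the member that fell was Csf3r, described above. Camp and Ngp had no count in any IL-4 library, S100a8 stood at 37.7 ± 10.8 CPM at 8 h and 33.7 ± 19.1 CPM at 24 h, Retnlg had a log2 change of 1.46 (adjusted p = 0.45), and the list summed to 115, 123, 116 and 116 CPM at 8 h and 113, 85.8, 79.6 and 83.7 CPM at 24 h. The call on Cd3d was lost without 8 h replicates 1, 3 or 4 or 24 h replicates 2 or 4 (adjusted p 0.064 to 0.19).

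Markers of eosinophils and mast cells were examined in the same way. Whether such cells have a part in the rise of Ear2 and Rnase2a was not tested. None of 9 tested members was called, with 3 at an unadjusted p under 0.05 and 0 called by DESeq2. Their sum was 25.1, 18.7, 17.4 and 17.7 CPM at 8 h and 17.4, 18.5, 20.4 and 17.8 CPM at 24 h. Prg2, the major basic protein of eosinophils, had no count in any of the 8 libraries, and Siglecf measured 6.52 ± 1.92 CPM at 8 h and 9.85 ± 2.16 CPM at 24 h. The log2 changes of Tpsb2, Mcpt4, Cma1 and Il5ra were -0.86, -1.84, -0.95 and -1.69. B cell markers summed to 24.1, 23.2, 15.5 and 17.1 CPM at 8 h and 11.98, 11.6, 14.9 and 16.5 CPM at 24 h with no call, and the log2 changes of Ms4a1, Cd79b and Bank1 were -0.87, -0.80 and -0.82.

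Dendritic cell markers summed to 81.7, 58.5, 97.5 and 121 CPM at 8 h and 97.0, 42.4, 41.6 and 39.4 CPM at 24 h, with replicate 1 the highest at 24 h. None of 9 tested members was called, and the log2 changes were -0.86 (adjusted p = 0.068) for Batf3, -1.62 (adjusted p = 0.07) for Ccr7, -1.42 (adjusted p = 0.12) for Ccr9 and -2.05 (adjusted p = 0.14) for Siglech. Smooth muscle and endothelial markers summed to 25.4, 29.3, 19.9 and 27.2 CPM at 8 h and 24.0, 17.4, 21.9 and 18.3 CPM at 24 h, with log2 changes of -1.21 for Pecam1, -0.49 for Tagln, -0.39 for Acta2 and -0.31 for Des and no call. No part of these cell types in the changes above was tested.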

How the data were processed

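Polyadenylated RNA of 44 macrophage cultures in 12 groups was sequenced as single-end 50-base reads, and the 8 IL-4 libraries at 8 h and 24 h and the 8 controls at those times are reported. The authors deposited raw counts per gene for 46078 mouse genes, and the submitters' processing notes name cutadapt, Bowtie2, TopHat2 2.1.1, HTSeq, DESeq, edgeR and the build mm10. The deposited trimming commands removed 3 bases from the 5′ end, clipped poly(A) and adapter sequence and dropped reads under 18 bases. Which annotation release was counted, and with which strand setting, is not given here, so reads of overlapping and antisense genes cannot be told apart, and ambiguous reads came to 5.39 per 100 counts assigned to genes over all libraries. The 5 summary entries of the counter (such as reads without a feature) were left out of library sizes and tests.

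Genes were kept by filterByExpr with a minimum count of 10 (14537 genes), scaled by TMM and tested with edgeR 4.0.16 in R 4.3.3 by the quasi-likelihood test with 1 coefficient per group over all 44 libraries. P-values were adjusted by Benjamini-Hochberg over all genes tested and called under 0.05. CPM are counts per M (mega) of the counts in tested genes, scaled by TMM. SD are over the 4 cultures, and SE are of fitted log2 changes. All p-values are two-sided. Counting error dominates at low counts and is largest in the shallow libraries.

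The members and the 40 gene lists (765 symbols, 723 of them tested) were chosen with earlier results of these data known. Named genes were the 10 largest rises and falls among called genes without overlap at a mean of at least 1 CPM, up to 6 called differences from the controls in each direction, the 4 smallest p-values of each list and a short fixed set of IL-4 genes, and other list members stand beside their counts. Predicted genes without a symbol of their own were counted only. A few genes that the rule names are not reported here. The labels do not say what cultures of the same replicate number share. Treating same-numbered controls as pairs rests on these data alone. Their deviations from their group means correlated at 0.365, 0.425, 0.651 and 0.363, against -0.432 to 0.300 for controls of unlike number. Alternatives were other size factors, no filter, DESeq2 1.42.0, the compared groups alone, a replicate block, thinned libraries and leaving out each library. Fits without 3 shallow IL-4 libraries and without the controls numbered 1 or 3 (called control pairs 1 and 3) were chosen after seeing the data. Coordinates are from GENCODE M21, and promoter sequences from RefSeq (GRCm38.p6).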

Additional observations from a re-analysis of the deposited data

Results flagged for a closer look

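Of 126 groups of 4 libraries, from 63 genes at 8 h and 24 h in IL-4, 21 held a library whose gap to the nearest other exceeded Dixon's 95% critical value as a share of the group's range. Chance gives about 1 in 20 for genes not picked by their values. These 63 were among the genes named in the text, many for the size or p of their change, so that rate is no test here. In 17 of the 21 groups the library was 24 h replicate 1, the shallowest, and whether its depth has a part in this was not tested. It was the lowest 24 h library for 12 genes. Among IL-4 markers and their regulators it held 317 CPM for Mrc1 (others 592 to 606), 8.71 CPM for Chil4 (others 13.7 to 14.2), 30.5 CPM for Irf4 (others 51.5 to 54.7) and 339 CPM for Atf3 (others 559 to 583). Among lipid genes and chaperones it held 47.9 CPM for Scd2 (others 159 to 173), 91.5 CPM for Abca1 (others 175 to 188) and 573 CPM for Hsp90b1 (others 817 to 831). Among proteases it held 15.3 CPM for Plau (others 31.4 to 33.0), 51.2 CPM for Mmp13 (others 89.0 to 95.4) and 22.9 CPM for Mmp19 (others 217 to 254). For an endocytic adaptor and a mesothelial factor it held 49.0 CPM for Dab2 (others 93.4 to 99.2) and 2.18 CPM for Wt1 (others 9.25 to 9.52). It was the highest 24 h library for 5 genes. It held 24.0 CPM for Ccl24 (others 7.47 to 8.21) and 495 CPM for Acp5 (others 248 to 259), genes of an eotaxin and a phosphatase. It also held 1083 CPM for Hspa5 (others 962 to 974), 19.6 CPM for Rbp4 (others 9.80 to 11.0) and 1322 CPM for Nfrkb (others 119.6 to 173). At 8 h, replicate 1 held 959 CPM for Ccl6 (others 705 to 724). Replicate 2 held 8.58 CPM for Slc22a19 (others 1.71 to 2.49) and 3.53 CPM for Lef1 (others 1.24 to 1.58). Replicate 3 held 28.0 CPM for Pcdhb4 (others 0.429 to 2.21).

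The change over time in IL-4 differed from that in the controls for 9 genes by the test of that difference. The differences of the log2 changes, IL-4 minus control, were 4.08 for Slc36a2, 3.19 for Ccl22, 1.36 for Ccl9, 0.95 for Hspa5, 0.89 for Snx7 and 0.86 for Pdia6. They were -1.55 for Ms4a6b, -1.43 for Csf3r and -1.21 for Dab2.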

How the results depend on the processing

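For IL-4 at 24 h against 8 h (226 higher and 221 lower) the counts were 423 and 315 without the filter on low counts, 352 and 372 with DESeq2, 27 and 15 with the 8 libraries alone, 96 and 68 with libraries thinned to the shallowest, and 410 and 442 without the 3 libraries under 2 M counts. Without 1 library they were 118 to 859 higher and 90 to 486 lower. The controls (47 and 31) gave 84 and 284 without the filter, 126 and 65 with DESeq2, 73 and 49 alone, 40 and 16 thinned, and 19 to 47 and 8 to 37 without 1 library. With the replicate number as a block the counts were 421 and 486 in the controls and 6 and 0 in IL-4, where same-numbered libraries did not deviate together (r from -0.414 to 0.190) and 321 genes were lower at an unadjusted p under 0.05. The difference of the changes (6 and 3) gave 11 and 11 with relative log expression factors, 69 and 27 without the filter, 42 and 63 with DESeq2, 2 and 1 alone, 1 and 0 with the block (361 lower unadjusted), 1 and 1 thinned, 0 and 0 without the 3 shallow libraries, 3 and 1 without control pair 1, 3 and 0 without control pair 3 (446 lower unadjusted), and 2 to 15 and 0 to 9 without 1 library. It had no lower gene without 8 h replicate 2, control 8 h replicate 4 or control 24 h replicate 2 (571, 476 and 496 lower unadjusted). The genes counted with the block or thinned were none of the 9 named above, and with the groups alone only Slc36a2 was among them. List members (52 and 32) gave 16 and 5 alone, 5 and 0 with the block, 36 and 13 thinned, 59 and 59 without the shallow libraries, and 40 to 93 and 15 to 61 without 1 library. Of the 447 genes, 422 were among the 724 of DESeq2 and 286 among the 738 without the filter, and no called gene reversed in these fits. Apart from the filter and the thinning, whose construction changes the genes or counts tested, the cause was not tested. Depth is lowest in the 8 h group and 24 h replicate 1 (0.908 to 6.46 M counts), where 1 count stands for the most CPM.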
